A study of Mus musculus with 6 samples.

Results

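The nuclear-encoded respiratory chain genes described here are the rows of the deposited count table whose symbol begins with Nduf, Uqcr, Cox and a digit, or Atp5, or is Sdha, Sdhb, Sdhc, Sdhd, Higd1a or Higd2a. They make up 110 of 55401 rows and carry 109 symbols, since Atp5o has a second row at 0 in every library, and 14 rows with names of the -ps kind were left out. The names were matched without any measured value, but Higd2a was known to be higher in these data when it was included. Of the 110 rows, 99 passed the filter on low counts and were tested among 17573 genes. The 11 that did not pass were the second Atp5o row, 5 tissue-specific isoforms of complex IV and 5 further gene copies, and 6 of the 11 had no count in any library.

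Embryonic stem cells of the mouse line 129/Ola were used, in which, per the titles and the treatment protocol, an auxin-inducible degron (AID) is fused to the zinc finger protein ZFP207. The degron is a tag through which the plant hormone IAA sends a protein to the proteasome. The 3 depleted libraries came from ZFP207AID cells kept with IAA for 5 h (genotype label for ZFP207 degradation) and the 3 control libraries from cells without it (0 h, genotype label WT), all grown in serum and leukemia inhibitory factor. RNA that had taken up 4-thiouridine (4sU), a uridine analogue, was biotinylated and pulled down, so that the values weigh RNA made during the labelling. The series asks whether ZFP207 acts on U1 snRNP, which binds 5' splice sites in new transcripts. The controls were taken as degron cells from their titles, and if they were untagged cells, each comparison would also be one of cell lines. IAA and the loss of ZFP207 enter each comparison together, as no degron-free library with IAA was analysed here.

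The respiratory chain sits in the inner mitochondrial membrane. Complexes I and II take electrons from NADH and succinate, ubiquinone and cytochrome c carry them by way of complex III to complex IV, which reduces oxygen, and the ATP synthase, or complex V, uses the proton gradient that complexes I, III and IV build. Complexes I, III, IV and V join subunits encoded in the nucleus with a few encoded in mitochondrial DNA, whereas all subunits of complex II are nuclear, and dedicated assembly factors insert cofactors and join modules. Many of the nuclear genes are known targets of the transcription factors NRF1, GABPA and YY1.

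The promoter stretches of 5 members are printed because these genes carry the contrasts described below. Higd2a had the highest and Cox15 the lowest fold change of the members in the unpaired fit described below. Ndufa11 was the complex I subunit called in the paired fit described below, and Sdhb and Sdhd stood at the 2 ends of complex II. In the paired fit, Cox7a1 had a higher log2 fold change than Higd2a (1.89 against 1.34). Ndufa4l2 had a lower one than Cox15 (-0.96 against -0.78). Each stretch runs 5′ to 3′ on the strand of its gene, from the nearest neighbouring gene or from 250 bases before the RefSeq start to 20 bases after it, in build GRCm38.p6. Capitals mark a match to one of the motifs searched. The stretches lie at chr13:54590098-54590250 on the plus strand for Higd2a, chr17:56717700-56717781 on the plus strand for Ndufa11, chr4:140961021-140961290 on the plus strand for Sdhb, chr9:50603830-50603900 on the minus strand for Sdhd and chr19:43752981-43753022 on the minus strand for Cox15.
Higd2a: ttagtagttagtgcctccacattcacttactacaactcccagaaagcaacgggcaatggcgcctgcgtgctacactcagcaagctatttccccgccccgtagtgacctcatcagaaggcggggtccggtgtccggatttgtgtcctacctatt
Ndufa11: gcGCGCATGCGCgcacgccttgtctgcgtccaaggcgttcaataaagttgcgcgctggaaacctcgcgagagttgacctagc
Sdhb: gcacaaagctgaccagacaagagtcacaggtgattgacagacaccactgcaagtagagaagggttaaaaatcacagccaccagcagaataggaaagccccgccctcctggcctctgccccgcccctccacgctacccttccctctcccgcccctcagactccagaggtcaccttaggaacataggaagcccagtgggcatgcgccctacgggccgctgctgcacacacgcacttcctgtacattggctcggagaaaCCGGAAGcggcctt
Sdhd: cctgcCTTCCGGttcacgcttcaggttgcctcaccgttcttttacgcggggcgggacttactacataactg
Cox15: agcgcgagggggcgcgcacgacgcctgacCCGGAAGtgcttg
With the start as base 1 and the base before it as -1, the NRF1 match of Ndufa11 began at base -60 (GCGCATGCGC), and the ETS matches began at base 7 in Sdhb (CCGGAAG), base -46 in Sdhd (CTTCCGG, on the other strand) and base 8 in Cox15 (CCGGAAG). The Higd2a stretch held none of the motifs. Higd2a, Ndufa11, Sdhd and Cox15 have short stretches because another gene begins close by on the opposite strand. These neighbours are Nop16 at a distance of 133 bases, Vmac at 62, Timm8b at 51 and Cutc at 22.

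Each library held between 14336811 and 25916628 counts, and the members took 0.372 ± 0.0491% of them in depleted libraries and 0.354 ± 0.0438% in controls (SD, n = 3 each). A value of 0 allows a level of up to 0.114 to 0.203 CPM (counts put on one library size), taking 3 counts as the limit, which covers counting error only. On the first principal component, with 36.5% of the variance, depleted replicate 2 had a score of 21.6 and control replicate 2 one of 53.5, and the other 4 had scores below 0. All 10 embryonic stem cell markers listed were present, with a summed level of 4929 to 5571 CPM in depleted libraries and 4704 to 5186 CPM in controls. The paired fit described below called 2 of these 10 higher, Klf4 and Utf1, against 4.96% of all genes tested. With so few genes, this share can hardly be set beside that of all genes. Of 7 fibroblast markers, Col3a1, Dcn, Lum and Postn were at 0 in all libraries, and the list summed to 2.87 to 4.47 CPM in depleted libraries and 2.49 to 8.94 CPM in controls. The 6 primitive endoderm markers summed to 7.89 to 9.07 CPM in depleted libraries and 4.04 to 8.40 CPM in controls, and the 5 markers of 2-cell-like cells to 0.867 to 26.7 CPM in depleted libraries and 0.114 to 26.7 CPM in controls. Zfp207 RNA was at 695, 1467 and 596 CPM in depleted libraries and 545, 1116 and 548 CPM in controls, which does not check the depletion, because a degron acts on the protein. The depleted library was the higher one in all 3 pairs, and the gene was called higher in the paired fit (paired log2 fold change 0.29, edgeR adjusted p = 0.0196) but not in the unpaired fit (unpaired log2 fold change 0.32, edgeR adjusted p = 0.823).

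Most respiratory chain genes did not pass the test. Counts were compared with the quasi-likelihood test of edgeR, once without a block (the unpaired fit) and once with the replicate number as a block (the paired fit), and genes with a Benjamini-Hochberg adjusted p under 0.05 over all genes tested were called. The unpaired fit called 0 of 99 members, against 0.791% of all genes tested, of which 0.78% were lower and 0.0114% higher. At an unadjusted p under 0.05 it held 6 members, Higd2a, Cox6b2, Ndufa11, Sdhb, Cox15 and Cox18, against 10.9% of all genes. The paired fit called 7 members higher, where the background was 4.96%, and 3 lower, where it was 7.9%, so that 10 of 99 were called against 12.9% of all genes. DESeq2 without the block called 1 member higher, Higd2a, against a background of 0.353%, and 1 lower, Cox15, against 3.29%. Higd2a was known to be higher when it was included, so its DESeq2 call cannot be weighed against that background. It is also among the 7 called higher in the paired fit. In these bulk libraries, fewer cells of a type and less RNA per cell cannot be told apart, and all changes are relative to the other genes.

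The members leaned slightly upward. The unpaired log2 fold change was above 0 for 69 members and below 0 for 30, while it was above 0 for 52.3% of all genes tested. Its median was 0.13 over members and 0.024 over all genes tested. Within the pairs of same-numbered libraries the members' median log2 ratio was 0.10, 0.15 and 0.14. In all 3 pairs the depleted library was the higher one for 36 members, against 24.2% of all genes, and the lower one for 15, against 24.1%. All 3 depleted libraries lay above all 3 controls for 10 members, Higd2a among them, where the background was 6.94%. They lay below all 3 controls for 6 members, where it was 11.8%. Without control replicate 2 the median was 0.054, and with scaling by total counts alone it was 0.073 beside -0.037 for all genes.

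**Figure D1:**
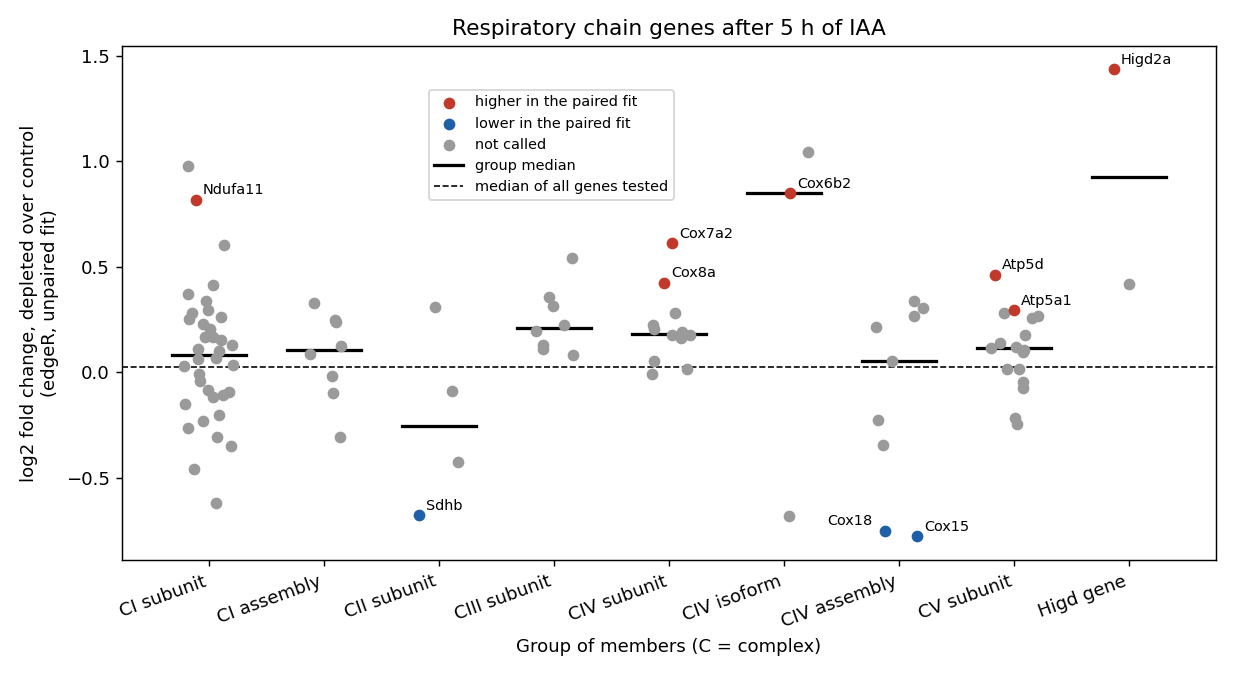
Unpaired log2 fold change (depleted over control, y axis) of the 99 tested members by complex and role (x axis), 1 point a gene, with a bar at each group's median and a dashed line at the median of all genes tested, 0.024. Points called in the paired fit are coloured and named: 7 higher, with Higd2a at 1.44 on top, and 3 lower, Sdhb in complex II and Cox15 and Cox18 among the complex IV assembly factors.

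Higd2a and Higd1a belong to the hypoxia-induced gene domain family, and both proteins bind complex IV, Higd2a as a factor in the assembly of complex IV and of supercomplexes. Higd2a was at 18.9, 6.39 and 11.5 CPM in depleted libraries and 5.52, 4.33 and 3.74 CPM in controls, from 140 to 424 counts in depleted libraries and 69 to 145 in controls. All 3 depleted values lay above all 3 controls, with depleted replicate 2 close to them. Unpaired, its log2 fold change was 1.44 (edgeR adjusted p = 0.191, SE 0.41), and with pairing it was 1.34 (edgeR adjusted p = 0.00840, SE 0.28), and DESeq2 gave 1.45 (adjusted p = 0.0290). The paired call was lost without pair 1 (paired log2 fold change 1.09, edgeR adjusted p = 0.0762) and without pair 3 (paired log2 fold change 1.19, edgeR adjusted p = 0.0925), and held without pair 2 (paired log2 fold change 1.70, edgeR adjusted p = 0.00258).

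Higd1a was at 18.7, 20.5 and 16.5 CPM in depleted libraries and 15.6, 14.3 and 11.8 CPM in controls. Its groups did not overlap either, but it was not called in the unpaired fit (log2 fold change 0.42, edgeR adjusted p = 0.545) or the paired fit (paired log2 fold change 0.42, edgeR adjusted p = 0.130). The ratio of Higd2a to Higd1a counts was 1.01, 0.311 and 0.697 in depleted libraries and 0.353, 0.303 and 0.318 in controls, so that in replicate 2 it was nearly the same in both groups. The gene Higd2a spans 54590231 to 54591147 on chromosome 13 (mm10). Its divergent neighbour Nop16, which encodes a nucleolar protein of ribosome biogenesis, averaged 49.1 ± 3.41 CPM in depleted libraries and 33.6 ± 5.66 CPM in controls (SD, n = 3 each) and was called higher in the paired fit (paired log2 fold change 0.56, edgeR adjusted p = 0.0110). Cltb, which encodes a clathrin light chain and lies 1238 bases beyond the other end of Higd2a, was not called (paired log2 fold change -0.16, edgeR adjusted p = 0.452). The strand of the libraries is not given, so reads of Higd2a and of transcripts on the other strand cannot be told apart.

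**Figure D2:**
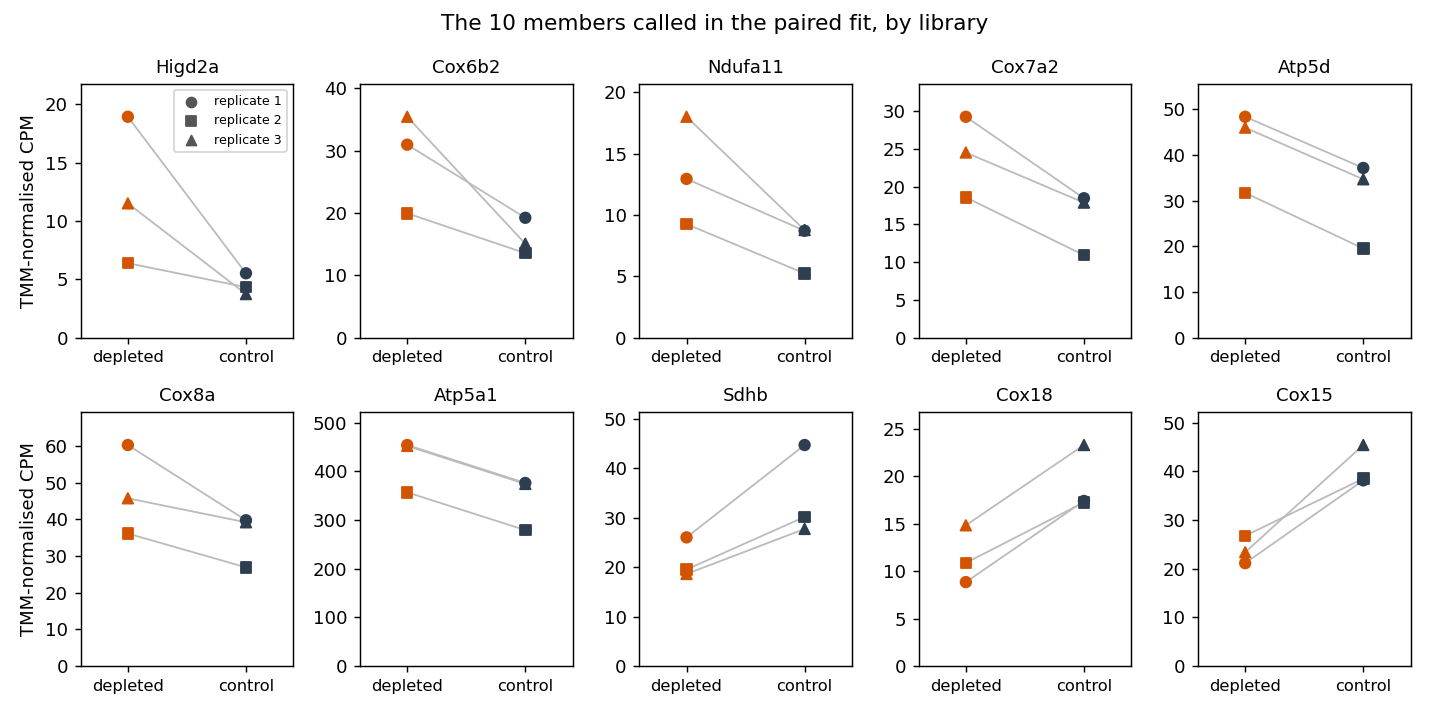
TMM-normalised CPM (y axes from 0) of the 10 members called in the paired fit, with depleted libraries on the left and controls on the right of each panel, and lines that join libraries of the same replicate number. Each line slopes the same way within a gene, and for Atp5d, Cox8a and Atp5a1 the groups overlap although the depleted library is the higher one in each pair.

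Complex I, the NADH dehydrogenase, was the most numerous group and 1 of its subunits was called. That is 2.78% of them, against 12.9% of all genes in the paired fit. All 36 subunits were tested, 22 had a fold change above 0 and 14 below, and the median was 0.083. Summed over the group, the level was 793, 731 and 810 CPM in depleted libraries and 783, 695 and 750 CPM in controls, ranges that overlap. Ndufa11, an accessory subunit of the membrane arm, was at 12.9, 9.26 and 18.0 CPM in depleted libraries and 8.72, 5.24 and 8.77 CPM in controls. Each depleted value lay above every control, the nearest being 9.26 against 8.77 CPM. Fitted without pairs it had a log2 fold change of 0.82 (edgeR adjusted p = 0.408, SE 0.33), and fitted with pairs one of 0.81 (edgeR adjusted p = 0.0259, SE 0.21), and the paired call was lost without pair 2 (edgeR adjusted p = 0.0646) or pair 3 (edgeR adjusted p = 0.205). The gene lies at 56717762 to 56724248 on chromosome 17, and Vmac, which begins 62 bases away on the other strand, was not called in the paired fit (paired log2 fold change 0.36, edgeR adjusted p = 0.154).

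The core subunits of complex I, which carry the flavin and iron-sulfur clusters or form the ubiquinone site, were not called in either fit. Ndufv1, which holds the flavin and binds NADH, had an unpaired log2 fold change of 0.13, and Ndufs1, the large iron-sulfur subunit beside it, one of 0.099. Ndufs7, which carries an iron-sulfur cluster beside the ubiquinone site, had an unpaired value of -0.0053.

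The ends of the complex I range were genes with few counts. Ndufa1, an accessory subunit of the membrane arm, was at 5.22, 2.46 and 3.93 CPM in depleted libraries and 1.26, 1.20 and 3.47 CPM in controls (unpaired log2 fold change 0.98, edgeR adjusted p = 0.575). Ndufa3, another accessory subunit of that arm, was at 7.10, 2.92 and 5.82 CPM in depleted libraries and 8.79, 8.37 and 7.15 CPM in controls (unpaired log2 fold change -0.62, edgeR adjusted p = 0.604), with no overlap of the groups. Neither was called in the paired fit. None of the 8 Ndufaf genes, the complex I assembly factors, was called either. Their median was 0.11, and they ranged between Ndufaf3 at -0.31 and Ndufaf4 at 0.33, which encode partners in the assembly of the ubiquinone module.

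Of the 4 subunits of complex II, succinate dehydrogenase, the paired fit called 1 lower and 0 higher. With so few genes, this share can hardly be set beside the 7.9% of all genes called lower. Sdhb, the iron-sulfur subunit that passes electrons from the flavin to ubiquinone, was at 26.0, 19.5 and 18.6 CPM in depleted libraries and 44.7, 30.2 and 27.7 CPM in controls. The highest depleted value lay below the lowest control. The fits gave a log2 fold change of -0.68 without the block (edgeR adjusted p = 0.334, SE 0.24) and -0.66 with it (edgeR adjusted p = 0.00803, SE 0.14). Paired, it was -0.60 without pair 1 and no longer called (edgeR adjusted p = 0.0536). Sdhb lies at 140961271 to 140979198 on chromosome 4.

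Sdhc and Sdhd encode the membrane anchors that bind heme and ubiquinone together. Sdhc was at 20.6, 16.3 and 22.9 CPM in depleted libraries and 25.0, 23.7 and 31.5 CPM in controls, again with no overlap, and was not called (paired log2 fold change -0.42, edgeR adjusted p = 0.0810). Sdhd was at 74.8, 60.0 and 78.0 CPM in depleted libraries and 65.8, 50.4 and 55.5 CPM in controls, the depleted value being the higher one in all 3 pairs. It was not called either (paired log2 fold change 0.31, edgeR adjusted p = 0.0666). Sdha, the flavoprotein that oxidises succinate, was at 85.8, 90.0 and 109 CPM in depleted libraries and 101, 109 and 92.1 CPM in controls (unpaired log2 fold change -0.087, edgeR adjusted p = 0.893), with its groups overlapping.

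Ratios of counts within a library do not depend on the scaling between libraries, and since the genes differ in length they do not say which has more RNA. The ratio of Sdhb to Sdhd counts was 0.348, 0.325 and 0.239 in depleted libraries and 0.680, 0.599 and 0.500 in controls. The ratio of Sdhc to Sdhd counts was 0.275, 0.271 and 0.294 in depleted libraries and 0.380, 0.471 and 0.567 in controls. Both ratios were lower in every depleted library than in any control. The ratio of Sdhb to Sdha counts was 0.303, 0.217 and 0.171 in depleted libraries and 0.442, 0.277 and 0.301 in controls, lower in the depleted library of each pair but with overlapping groups. The pair of Sdhb and Sdhd was picked as the lowest and highest of the complex after the values were seen, so the gap is a description. The 4 subunits had a median of -0.26, which was -0.26, -0.41 and -0.11 within the pairs, while their summed level was 207, 186 and 228 CPM in depleted libraries and 237, 213 and 207 CPM in controls and overlapped.

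All 8 Uqcr-named subunits of complex III, cytochrome c reductase, had a fold change above 0, and none was called. Cyc1, a further nuclear-encoded subunit, lies outside the chosen names. It was not called in the unpaired fit (log2 fold change 0.30, edgeR adjusted p = 0.734) or the paired fit (0.30, edgeR adjusted p = 0.122). The median was 0.21, and 0.29, 0.15 and 0.29 within the pairs. The summed level was 334, 267 and 347 CPM in depleted libraries and 292, 234 and 282 CPM in controls, higher in the depleted library of each pair but with overlapping groups. Uqcrq, a small accessory subunit, was highest, at 28.2, 18.0 and 30.1 CPM in depleted libraries and 18.4, 15.4 and 18.6 CPM in controls. Its paired log2 fold change of 0.52 fell short of a call (edgeR adjusted p = 0.0541) and was called only when pair 2 was left out (edgeR adjusted p = 0.0367). Uqcr11, another small subunit, was lowest of the group at 0.081. Uqcrfs1, the Rieske iron-sulfur protein, was at 41.6, 34.4 and 41.1 CPM in depleted libraries and 39.0, 31.0 and 38.2 CPM in controls (unpaired log2 fold change 0.11, edgeR adjusted p = 0.880).

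**Figure D3:**
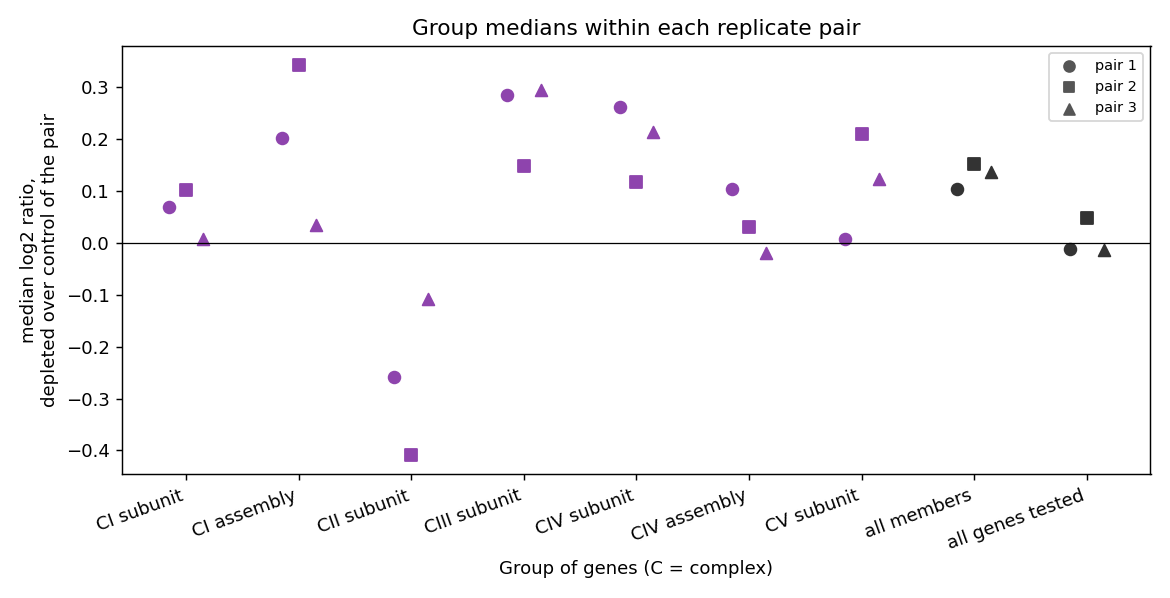
Median log2 ratio of depleted over control (y axis) within replicate pairs 1, 2 and 3 for 7 groups of members, for all members and for all genes tested (x axis). Complex II lies below 0 in each pair (-0.26, -0.41 and -0.11), complexes III and IV lie above 0 in each pair, and complex IV assembly factors lie at 0.10, 0.031 and -0.020.

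In complex IV, cytochrome c oxidase, the called subunits were higher and the called assembly factors lower, with only 2 calls in each group. Of the 12 ubiquitous nuclear subunits, 11 had a fold change above 0, with a median of 0.18, and the paired fit called 2 higher and 0 lower. Of the 9 assembly factors, 5 had a fold change above 0 and 4 below, with a median of 0.052, and the paired fit called 0 higher and 2 lower. The calls made up 16.7% of the subunits and 22.2% of the assembly factors. Of all genes tested, 12.9% were called, 4.96% higher and 7.9% lower. The summed level of the subunits was 587, 477 and 567 CPM in depleted libraries and 511, 421 and 494 CPM in controls. That of the assembly factors was 143, 163 and 165 CPM in depleted libraries and 175, 186 and 190 CPM in controls, with every depleted library below every control. This sum includes Cox15 and Cox18, the 2 assembly factors called lower, and was not computed without them. It therefore adds nothing beyond these 2 calls and does not show a drop across the group. The median of the assembly factors was near 0 and had no stable sign. It was -0.024 with total counts alone, -0.11 without depleted replicate 2, -0.081 without control replicate 2 and -0.0078 without depleted replicate 1. In the paired fit it was 0.037, and -0.028 without pair 1 and -0.057 without pair 2. Without depleted replicate 3 it was 0.23. The difference between these groups of genes was not tested.

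Cox7a2 and Cox8a were the subunits called higher, both of them ubiquitous forms of small membrane-spanning subunits. Cox7a2 (chromosome 9, 79755241 to 79771422) was at 29.2, 18.6 and 24.5 CPM in depleted libraries and 18.5, 10.9 and 17.9 CPM in controls. The depleted values lay above the controls, the nearest being 18.6 against 18.5 CPM. On the log2 scale the fold change came to 0.61 unpaired (edgeR adjusted p = 0.461, SE 0.27) and 0.63 paired (edgeR adjusted p = 0.0220, SE 0.16), and the omission of any pair ended the call (edgeR adjusted p between 0.0700 and 0.0965). The gene overlaps Tmem30a, a flippase subunit gene, which was not called (paired log2 fold change 0.092, edgeR adjusted p = 0.663).

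Cox8a (chromosome 19, 7215158 to 7217616) was at 60.3, 36.1 and 45.8 CPM in depleted libraries and 39.8, 26.9 and 39.2 CPM in controls. The groups overlapped, since depleted replicate 2 lay below control replicates 1 and 3, while each pair had the depleted library higher. Unpaired, its log2 fold change was 0.42 (edgeR adjusted p = 0.582, SE 0.24), and with pairing it was 0.42 (edgeR adjusted p = 0.0428, SE 0.12), and the omission of any pair ended the call (edgeR adjusted p between 0.0916 and 0.246). Cox4i1 and Cox5a, early subunits of the assembly that bind the catalytic core, had unpaired log2 fold changes of 0.055 and 0.017. Cox5b, the zinc-binding subunit, was lowest of the group at -0.0057, and Cox7a2l, a relative of Cox7a2 that joins complexes III and IV into supercomplexes, had 0.21 (edgeR adjusted p = 0.881).

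Of the isoforms known from particular tissues, Cox6b2 was the one with many counts. Cox6b2, the testis form of the subunit encoded by Cox6b1, was at 30.9, 19.9 and 35.4 CPM in depleted libraries and 19.2, 13.5 and 15.1 CPM in controls. All depleted values lay above all controls. Fitted without pairs it had a log2 fold change of 0.85 (edgeR adjusted p = 0.241, SE 0.26), and fitted with pairs one of 0.83 (edgeR adjusted p = 0.00770, SE 0.17). Paired, it was 0.61 without pair 3 and no longer called (edgeR adjusted p = 0.0956). The gene lies at 4751792 to 4753094 on chromosome 7.

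Cox6b1, the ubiquitous form, was at 23.8, 16.9 and 28.0 CPM in depleted libraries and 16.4, 18.1 and 25.7 CPM in controls (unpaired log2 fold change 0.19, edgeR adjusted p = 0.854). The ratio of Cox6b2 to Cox6b1 counts was 1.30, 1.18 and 1.26 in depleted libraries and 1.17, 0.748 and 0.585 in controls, higher in each depleted library than in any control, the nearest being 1.18 in depleted replicate 2 against 1.17 in control replicate 1. The other tissue forms were near or at the limit of counting. Cox6a2 and Cox8b, forms of heart and skeletal muscle, had 0 counts in all 6 libraries. Cox4i2, the lung form, had 6 counts in depleted replicate 2 and 18 in control replicate 3 and none elsewhere, and Cox8c and Cox7b2 had at most 8 counts in a library. Cox7a1, another muscle form, was at 1.65, 1.55 and 2.30 CPM in depleted libraries and 2.06, 0 and 0.542 CPM in controls, and Ndufa4l2, a hypoxia-induced relative of the complex IV subunit Ndufa4, at 0.580, 0.411 and 0 CPM in depleted libraries and 0.266, 0.740 and 0.650 CPM in controls. Neither was called in either fit. The ubiquitous counterpart Cox6a1 had an unpaired log2 fold change of 0.18 (edgeR adjusted p = 0.833).

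Among the assembly factors of complex IV, Cox15 and Cox18 were called lower in the paired fit. Cox15 encodes heme A synthase, the enzyme that finishes the heme of the catalytic subunit. It was at 21.1, 26.7 and 23.4 CPM in depleted libraries and 38.1, 38.5 and 45.4 CPM in controls. The groups were well apart, with 26.7 CPM the highest depleted value and 38.1 CPM the lowest control. The fits gave a log2 fold change of -0.78 without the block (edgeR adjusted p = 0.110, SE 0.18) and -0.78 with it (edgeR adjusted p = 0.00319, SE 0.14), and DESeq2 gave -0.76 (adjusted p = 0.00684). Cox15 was the only one of the 10 called members that stayed called when any of the pairs was left out, with a paired log2 fold change between -0.90 and -0.70 and an edgeR adjusted p of at most 0.0407.

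The ratio of Cox15 to Cox4i1 counts was 0.270, 0.422 and 0.249 in depleted libraries and 0.475, 0.588 and 0.562 in controls, lower in every depleted library. Cox15 had the lowest unpaired fold change of the members, so this ratio restates its values and is a description. Cox15 lies at 43733254 to 43753000 on chromosome 19. Entpd7, which encodes a nucleotide hydrolase and overlaps one end of the gene, was not called (paired log2 fold change -0.025, edgeR adjusted p = 0.944). Cutc, which begins 22 bases from the other end, averaged 1.03 ± 0.511 CPM in depleted libraries and 1.95 ± 1.18 CPM in controls (SD, n = 3 each; paired log2 fold change -0.90, edgeR adjusted p = 0.444).

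Cox18 encodes an insertase that places a tail of the mitochondrially encoded subunit mt-Co2 across the membrane. It was at 8.84, 10.9 and 14.8 CPM in depleted libraries and 17.4, 17.2 and 23.3 CPM in controls, with all depleted values below all controls. On the log2 scale the fold change came to -0.75 unpaired (edgeR adjusted p = 0.324, SE 0.27) and -0.76 paired (edgeR adjusted p = 0.0145, SE 0.18). The call was lost without pair 1 (edgeR adjusted p = 0.0783) and without pair 3 (edgeR adjusted p = 0.0706). Cox18 lies at 90214724 to 90224595 on chromosome 5, 2570 bases from Ankrd17, which was not called (paired log2 fold change 0.16, edgeR adjusted p = 0.153). Cox11, which delivers copper to the catalytic subunit, stood at the other end of the group, at 13.0, 19.3 and 15.2 CPM in depleted libraries and 11.2, 14.3 and 12.0 CPM in controls (unpaired log2 fold change 0.34, edgeR adjusted p = 0.684).

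The ATP synthase gave the members with the highest counts. Of 17 subunit genes tested, 13 had a fold change above 0 and 4 below, the median was 0.12, and the paired fit called 2 higher and 0 lower. These calls are 11.8% of the 17, against 12.9% of all genes, of which 4.96% were higher. The summed level was 1644, 1396 and 1750 CPM in depleted libraries and 1563, 1164 and 1562 CPM in controls, higher in the depleted library of each pair with overlapping groups. Much of this sum came from Atp5a1 and Atp5b. Without them it was 617, 513 and 623 CPM in depleted libraries and 589, 466 and 598 CPM in controls. The log2 ratios of that smaller sum within the pairs were 0.068, 0.14 and 0.061. The median of the 17 genes was -0.0089 without control replicate 2. Atp5a1, the alpha subunit of the catalytic head, was at 454, 357 and 452 CPM in depleted libraries and 376, 279 and 374 CPM in controls. The libraries of replicate 2 were lower than the others in both groups, so the groups overlapped although each depleted value exceeded its own control.

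Unpaired, the log2 fold change was 0.30 (edgeR adjusted p = 0.590, SE 0.17), and with pairing it was 0.30 (edgeR adjusted p = 0.0129, SE 0.07), and the paired call was lost without pair 3 (edgeR adjusted p = 0.0661). Atp5a1 lies at 77773768 to 77782869 on chromosome 18. One end of the gene overlaps Haus1, which encodes a subunit of the augmin complex of the spindle and was called lower in the paired fit (paired log2 fold change -1.07, edgeR adjusted p = 0.00121). Atp5b, the catalytic beta subunit, was at 572, 526 and 674 CPM in depleted libraries and 598, 419 and 590 CPM in controls and was not called (paired log2 fold change 0.15, edgeR adjusted p = 0.245).

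Atp5d, the delta subunit of the central stalk, was at 48.3, 31.7 and 46.0 CPM in depleted libraries and 37.1, 19.5 and 34.7 CPM in controls. Replicate 2 was again the lowest library in both groups, and each depleted value exceeded its own control. Fitted without pairs it had a log2 fold change of 0.46 (edgeR adjusted p = 0.603, SE 0.27), and fitted with pairs one of 0.49 (edgeR adjusted p = 0.0252, SE 0.13), and the paired call was lost without pair 2 (edgeR adjusted p = 0.104) or pair 3 (edgeR adjusted p = 0.0956). Atp5d lies at 80138698 to 80145828 on chromosome 10. It overlaps Cbarp, a calcium channel regulator gene, which was called lower in the paired fit (paired log2 fold change -0.58, edgeR adjusted p = 0.0212), and Midn, 176 bases away, which was called higher (paired log2 fold change 0.36, edgeR adjusted p = 0.00752). Atp5pb, the b subunit of the peripheral stalk, was lowest of the group, at 80.6, 73.4 and 68.1 CPM in depleted libraries and 91.3, 78.3 and 93.5 CPM in controls (unpaired log2 fold change -0.24, edgeR adjusted p = 0.616).

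The members are short genes. Their median genomic length was 7.39 kb over 99 tested members and 19.0 kb over all tested genes with a length in the RefSeq table. Under 10 kb, the median unpaired log2 fold change was 0.18 over 69 members and 0.14 over 5040 genes. Between 10 and 30 kb it was 0.028 over 23 members and 0.039 over 4650 genes, and at 30 kb or more it was 0.065 over 7 members and -0.084 over 5603 genes. Higd2a, at 0.917 kb, and Cox6b2, at 1.30 kb, were the shortest of the called members, and Cox15, at 19.7 kb, and Sdhb, at 17.9 kb, the longest. Between these ends, Cox7a2, called higher, spans 16.2 kb and Cox18, called lower, 9.87 kb. Across members, length and fold change had a Spearman rho of -0.31 (n = 99), and across all genes one of -0.24 (n = 15293). These genes share libraries and are not independent replicates, so the values are a description.

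**Figure D4:**
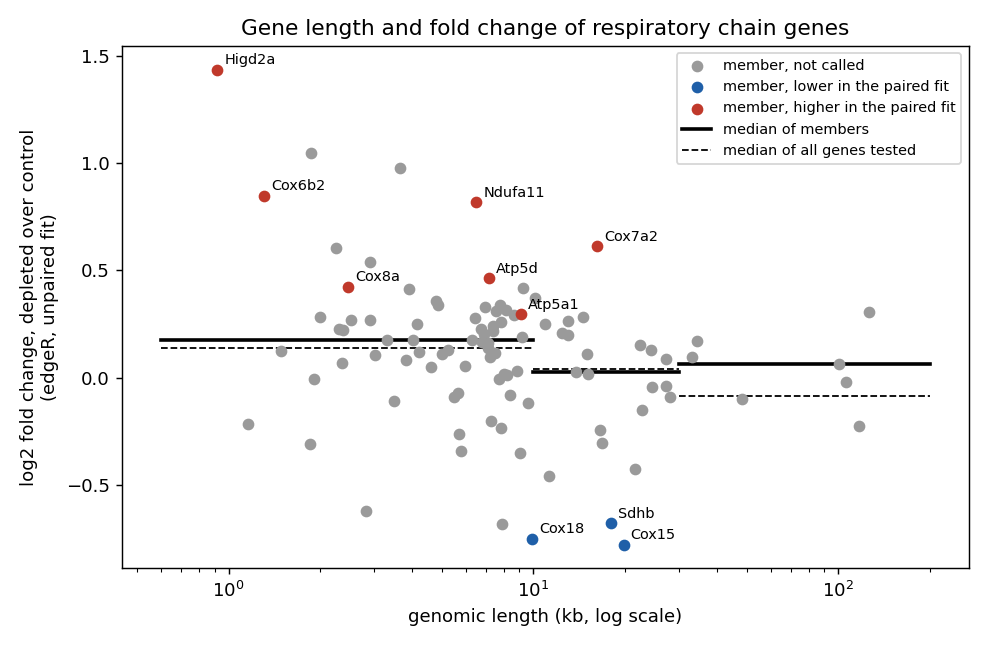
Unpaired log2 fold change (depleted over control, y axis) of the members against genomic length in kb (x axis, log scale), with solid bars at the members' median and dashed bars at the median of all genes tested within lengths under 10 kb, 10 to 30 kb and 30 kb or more. Members under 10 kb have a median of 0.18 beside 0.14 for all genes of that length.

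A larger share of the members' promoters than of all promoters held 3 of the 4 motifs searched. RefSeq windows of 300 bases, 250 before the start and 50 after it, were found for 85 of 109 symbols and searched on both strands, with a gene counted if any of its windows matched. The NRF1 motif, GCGCA followed by any base and GCGC, was present in 22.4% of members and 5.19% of 27025 genes. CCGGAAG, for ETS factors such as GABPA, was present in 29.4% of members and 9.93% of all genes, and AAGATGGC, for YY1, in 15.3% and 3.19%. TATAAA was present in 10.6% of members and 15.7% of all genes. The 27025 genes include many that were not tested here, so these shares do not compare like with like. Among tested genes with a window, TATAAA was present in 7 members and absent in 76, and present in 997 genes and absent in 10099. Of these tested genes, 1224 held the NRF1 motif and 9872 did not. CCGGAAG was present in 2164 and absent in 8932, and AAGATGGC was present in 566 and absent in 10530. The last letters of CCGGAAG and the first letters of AAGATGGC can overlap.

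These motifs were spread unevenly between the groups. NRF1 matches were found in 6 of 15 ATP synthase genes with a window and in 0 of 7 complex IV assembly factors, and ETS matches in 5 of those 7 assembly factors and 4 of 32 complex I subunits. The median log2 fold change was 0.18 over 19 tested members with an NRF1 match and 0.13 over 64 without, 0.13 over 25 with an ETS match and 0.16 over 58 without, and 0.018 over 13 with a YY1 match and 0.17 over 70 without. Over all tested genes with a window it was 0.048 with an NRF1 match and 0.0077 without. For ETS it was 0.029 with and 0.0057 without, and for YY1 0.031 with and 0.011 without. Differences by motif were not tested. The 250 bases before the start reached into another protein-coding gene for 28 of 83 tested members (33.7%) and for 16.7% of 10478 protein-coding genes. The median log2 fold change was 0.12 over the members that did so and 0.16 over the others.

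Among genes that work with the chain but lie outside the chosen names, the unpaired fit of edgeR called 0, and the calls below are those of its paired fit, which called 12.9% of all genes, 4.96% higher and 7.9% lower. DESeq2 without the block called 1 of these genes higher, Iba57 (adjusted p = 0.0490), and 6 lower, Taco1, Lyrm7, Tmem126b, Coq2, Gabpb2 and Tfb1m (adjusted p between 0.000458 and 0.0405). Over all genes tested, DESeq2 called 0.353% higher and 3.29% lower. The number of genes tested in each list is given with that list below. Of 20 assembly factors of complexes III and IV, 1 was called higher and 2 lower in the paired fit (15%). Coa6, a copper factor of complex IV, was at 8.70, 7.07 and 10.9 CPM in depleted libraries and 5.40, 3.59 and 4.44 CPM in controls (paired log2 fold change 0.98, edgeR adjusted p = 0.0305). Taco1, which activates translation of the mitochondrial mt-Co1, was at 5.71, 6.84 and 8.67 CPM in depleted libraries and 16.0, 11.7 and 13.4 CPM in controls (paired log2 fold change -0.96, edgeR adjusted p = 0.0175). Lyrm7, the chaperone that brings Uqcrfs1 into complex III, was at 0, 0.228 and 0 CPM in depleted libraries and 2.44, 2.67 and 0.975 CPM in controls (edgeR adjusted p = 0.0127).

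Of 20 assembly factors of complexes I, II and V, 1 was called higher and 3 lower (20%), and the median was -0.21. Sdhaf3, which helps to mature Sdhb in yeast and flies, was at 2.14, 8.35 and 2.91 CPM in depleted libraries and 6.24, 15.7 and 9.80 CPM in controls (paired log2 fold change -1.38, edgeR adjusted p = 0.00573). Tmem126b and Tmem186, both of the module that assembles the membrane arm of complex I, had paired log2 fold changes of -0.98 (edgeR adjusted p = 0.00636) and -0.50 (edgeR adjusted p = 0.00981), each with all depleted libraries below all controls. Dmac2, a factor of the distal membrane arm, was the one called higher (paired log2 fold change 0.51, edgeR adjusted p = 0.0394).

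Among 20 electron carriers and entry enzymes, 0 were called higher and 3 lower (15%, against 12.9% of all genes). The 3 called genes, Coq2, Coq3 and Coq5, encode enzymes of ubiquinone synthesis. Coq2, which joins the ring to its isoprenoid tail, was at 4.78, 5.52 and 4.74 CPM in depleted libraries and 14.4, 19.4 and 10.1 CPM in controls (paired log2 fold change -1.51, edgeR adjusted p = 0.00127). Every depleted value lay far below every control. The methyltransferase genes Coq3 and Coq5 had paired log2 fold changes of -0.98 (edgeR adjusted p = 0.0263) and -0.54 (edgeR adjusted p = 0.0193). The other Coq genes of the list were not called and differed in direction. Coq4 had the depleted library higher in all 3 pairs (paired log2 fold change 0.59, edgeR adjusted p = 0.0903), and Coq9 had it lower in all 3 (paired log2 fold change -0.46, edgeR adjusted p = 0.102). Coq7 had a paired log2 fold change of 0.21, and Coq6, Coq8a, Coq8b, Coq10a and Coq10b lay between -0.075 and 0.013.

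Of 16 regulators tested, 3 were called higher and 2 lower, which is 31.2% of the list against 12.9% of all genes. Gabpa, the DNA-binding subunit of the GABP factor, was at 266, 329 and 241 CPM in depleted libraries and 212, 272 and 216 CPM in controls (paired log2 fold change 0.25, edgeR adjusted p = 0.0384), while Gabpb2, a partner subunit, was at 119, 152 and 127 CPM in depleted libraries and 174, 249 and 205 CPM in controls (paired log2 fold change -0.65, edgeR adjusted p = 0.000226). Pprc1, a coactivator of the PGC-1 family, and Mterf4, which acts in mitochondrial ribosome assembly, had paired log2 fold changes of 0.41 (edgeR adjusted p = 0.00195) and 0.49 (edgeR adjusted p = 0.0209). Tfb1m, which methylates mitochondrial ribosomal RNA, was at 9.73, 10.2 and 8.46 CPM in depleted libraries and 19.7, 19.8 and 18.9 CPM in controls (paired log2 fold change -1.04, edgeR adjusted p = 0.00274).

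The 13 subunits encoded in mitochondrial DNA gave 0 calls in either edgeR fit or in DESeq2, and 0 of them had an unadjusted p under 0.05 in the unpaired fit. Their summed level was 58457, 34526 and 29223 CPM in depleted libraries and 42032, 36343 and 28150 CPM in controls, so that depleted replicate 1 stood above the rest and the groups overlapped. Of 14 genes of the tricarboxylic acid cycle, 0 were called higher and 2 lower, Ogdh (paired log2 fold change -0.44, edgeR adjusted p = 0.0121) and Suclg2 (paired log2 fold change -0.48, edgeR adjusted p = 0.0169), both in the paired fit. Of 15 genes of iron-sulfur cluster assembly, Iba57 was called higher (paired log2 fold change 0.88, edgeR adjusted p = 0.0113), and Lyrm4 (paired log2 fold change -0.84, edgeR adjusted p = 0.0466) and Nfu1 (paired log2 fold change -0.75, edgeR adjusted p = 0.00119) lower. Lyrm4 stabilises the enzyme that supplies sulfur to new clusters, and Iba57 and Nfu1 act late, on clusters destined for particular proteins.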

How the data were processed

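RNA labelled with 4sU was counted in 6 libraries, 3 depleted and 3 control. The table deposited by the authors holds estimated counts per gene as whole numbers, not normalised. HISAT2 2.2.1, StringTie 2.2.1, DESeq2 1.42.0 and mm10 are named per the submitters' processing notes, without roles. No source used here gives the annotation, the strand setting, the pulse length or whether a spike-in was added. Such estimates can divide reads between near-identical copies, such as pseudogenes, or overlapping genes, so members with such copies are uncertain. Columns were matched to samples by name.

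Tests were run with edgeR 4.0.16 under R 4.3.3 (filterByExpr by group, TMM, robust quasi-likelihood fits over all 6 libraries) and, as an alternative, DESeq2 1.42.0. The scripts were tested on simulated data. Levels are TMM-normalised CPM and fold changes are log2, depleted over control. Standard errors follow from the fold change and its F statistic. Ratios within pairs used 1 added count. Both groups carry replicate numbers 1 to 3 in the labels. The deviations of same-numbered libraries from their group means correlated across genes at 0.417, 0.556 and 0.446, and those of different numbers at -0.36 to -0.0029, which follows in part since deviations cancel within a group. The numbers were therefore taken to pair the libraries, and the paired fit is given where it changes a call. Log2 CPM of libraries in a group correlated at 0.969 to 0.981. Whether the replicates were separate cultures is not stated in the labels beyond the word independent, so p-values cover the spread among these 6 libraries, which may be technical.

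Names, coordinates, lengths and promoters came from RefSeq tables of GRCm38.p6 (equal to mm10), matched by symbol, which worked for all 109. The members and lists were chosen with earlier results of these data known. Genes named are Higd2a, Zfp207, members called in either fit, the highest and lowest of each group, core subunits, isoform pairs of complex IV, Higd1a and called genes of the lists. Sdhc was named after its values were seen. No exon structure, transcript length or protein sequence was used here, so levels of different genes are not compared.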

Additional observations from a re-analysis of the deposited data

How the results depend on the processing

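The unpaired fit called 0 members in either direction with DESeq2 size factors, with total counts alone, with no filter, with a filter of 1 CPM in 3 libraries and with any library left out. The replicate block gave 7 higher and 3 lower, and DESeq2 gave 1 higher and 1 lower. With the block and 1 pair left out, the members called higher numbered 4, 4 and 0 and those called lower 1, 3 and 2 without replicates 1, 2 and 3, and 5, 6 and 2 of these calls were among the 10 of all pairs. Over all genes the unpaired fit called 139, the block 2259 and DESeq2 641, and with 1 library left out the unpaired fit called 0 to 46.

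The median log2 fold change of the members, 0.13, was 0.073 with total counts alone and 0.097 with the block and without replicate 2, and 0.054 to 0.194 with 1 library left out. Higd2a, at 1.44 and not called, was called with the replicate block (1.34, edgeR adjusted p = 0.00840), with DESeq2 (1.45, adjusted p = 0.0290) and with the block without replicate 2 (1.70, edgeR adjusted p = 0.00258), while its value ranged from 0.98 to 1.75 with 1 library left out. Group medians ranged over all settings from -0.37 to -0.17 in complex II, 0.088 to 0.32 in complex III, 0.12 to 0.23 in complex IV subunits, -0.11 to 0.23 in complex IV assembly factors, 0.022 to 0.16 in complex I and -0.0089 to 0.21 in the ATP synthase. No called value changed sign. The cause of these shifts was not tested.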

Other observations

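Of the 14 rows with names of the -ps kind, 3 had enough counts to be tested, and none was called in either fit. Ndufb1-ps had 65, 40 and 61 counts in depleted libraries and 151, 72 and 106 counts in controls, with an unpaired log2 fold change of -0.82 (edgeR adjusted p = 0.516) and a paired one of -0.87 (edgeR adjusted p = 0.114). Ndufs5-ps had 100, 92 and 97 counts in depleted libraries and 115, 72 and 76 counts in controls. Ndufa12-ps had 98, 30 and 45 counts in depleted libraries and 64, 33 and 53 counts in controls. The other 11 rows had at most 15 counts in a library.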
